A study of Mus musculus with 18 samples.

Results

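The genes described here are 38 mouse genes of fatty acid synthesis, elongation and glycerolipid assembly, in leukemic spleens whose T-ALLs (T-cell acute lymphoblastic leukemias) carried or had lost Acly. They were listed by name for their biochemical step, with earlier results of these data known. They make up 38 of the 18329 genes in the acute table and of the 18953 genes in the survival table. All 38 were listed in both tables, and 36 reached a mean normalized count of 10, the minimum for testing. Me1 and Dgat2 did not. By step, 4 act in cytosolic synthesis, 2 in mitochondrial synthesis, 5 in desaturation, 9 in elongation, 4 in acyl-CoA activation, 7 in making phosphatidic acid and diacylglycerol, 2 in making triacylglycerol and 5 in making phosphatidylcholine and phosphatidylethanolamine.

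The study holds 18 RNA libraries from leukemic spleens of C57BL/6 mice, in 2 settings. All groups received T-ALLs with a conditional Acly allele, injected intravenously after sub-lethal irradiation. In the acute setting, overtly leukemic mice were given tamoxifen (3 mg per mouse in corn oil; KO acute, 4 libraries) or corn oil alone (WT acute, 4 libraries), and spleens were taken 48 h later. In the survival setting, the same treatments were given 48 h after transplant and spleens were taken at a humane endpoint: KO first wave (3 libraries), KO second wave (3 libraries) and WT survival (4 libraries). The labels do not say what sets the waves apart. Every KO group therefore differs from its WT group in tamoxifen as well as in Acly, and these cannot be told apart. The labels name no sort, so each library holds the leukemic and host cells left after red cell lysis, and fewer cells of a type and less RNA per cell cannot be told apart in such bulk samples. The design text gives 5 samples per genotype, while 10 KO and 8 WT libraries are listed, and the labels do not tie each library to its own mouse. The p-values therefore reflect only sample-to-sample spread, which may be technical.

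ATP-citrate lyase, the product of Acly, splits cytosolic citrate into acetyl-CoA and oxaloacetate. Acetyl-CoA carboxylase (Acaca, Acacb) makes malonyl-CoA from acetyl-CoA, and fatty acid synthase (Fasn) builds palmitate from the pair. Palmitate is then activated to its CoA ester, lengthened by Elovl, Hsd17b12, Hacd and Tecr enzymes, desaturated by Scd and Fads enzymes, and attached to glycerol by Gpam and Agpat enzymes on the way to triacylglycerols and phospholipids. Dividing cells use these products to build membranes, and SREBP-1, the product of Srebf1, is a known activator of many of the genes.

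Promoter sequence is shown for 3 members the results turn on: Hsd17b12, the member that fell in the acute setting, Hacd3, the member with the highest log2 change in both survival waves, and Fasn, the central synthase. The sequences come from RefSeq on GRCm38.p6, read 5′ to 3′ on the minus strand on which each gene lies. Those of Hacd3 and Fasn end at the base before the RefSeq start, and that of Hsd17b12 is shortened to the bases outside the gene as GENCODE M21 places it. They span chr2:94157965-94158159 for Hsd17b12, chr9:65021718-65021967 for Hacd3 and chr11:120824548-120824797 for Fasn. Capitals mark matches to CCAAT on either strand or to the E-box CACGTG, the 2 motifs found there.
Hsd17b12: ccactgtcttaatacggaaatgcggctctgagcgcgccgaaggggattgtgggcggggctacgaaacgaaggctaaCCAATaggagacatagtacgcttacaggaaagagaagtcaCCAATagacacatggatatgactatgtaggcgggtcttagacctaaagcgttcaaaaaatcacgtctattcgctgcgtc
Hacd3: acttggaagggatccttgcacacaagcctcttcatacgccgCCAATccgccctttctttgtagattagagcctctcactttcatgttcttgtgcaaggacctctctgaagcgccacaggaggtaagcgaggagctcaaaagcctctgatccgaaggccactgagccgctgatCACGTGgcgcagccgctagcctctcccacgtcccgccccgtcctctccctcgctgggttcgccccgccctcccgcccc
Fasn: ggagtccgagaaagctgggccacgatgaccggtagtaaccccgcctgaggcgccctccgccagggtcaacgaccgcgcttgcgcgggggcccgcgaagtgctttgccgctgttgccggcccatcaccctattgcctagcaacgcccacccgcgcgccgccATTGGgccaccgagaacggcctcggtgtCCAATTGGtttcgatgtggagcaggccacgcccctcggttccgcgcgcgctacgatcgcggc
Each of the 3 held CCAAT, and Hacd3 also held the E-box. In Fasn, 2 of the 3 CCAAT matches overlap on opposite strands in CCAATTGG. Among 32851 RefSeq promoter windows of 250 bases searched on both strands, 33.8% held CCAAT, 6.02% held CACGTG and 1.05% held the sterol-element-like TCACNCCAC. RefSeq windows were found for 30 of the 38 members, 41 windows in all, of which 18 held CCAAT (43.9%), 3 the E-box (7.32%) and 3 TCACNCCAC (7.32%). These 3 TCACNCCAC windows belong to only 2 members, Acsl1 and Pcyt1a, since 2 overlapping Pcyt1a windows hold the same site. A match describes letters only and shows no binding.

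Acly itself was lower in every KO library than in every WT library of its setting. In the acute setting it was 1422, 1129, 1231 and 1241 normalized counts in WT and 793, 804, 717 and 620 in KO, so that the KO mean was 58.4% of WT (log2 change -0.78, SE 0.13, limma adjusted p = 0.00266). At endpoint WT held 1697 ± 154 (SD, n = 4), the first wave 727 ± 71.8 (SD, n = 3; 42.8% of WT) and the second wave 576 ± 75.3 (SD, n = 3; 34.0% of WT). The first-wave change of -1.22 (SE 0.17) had a limma adjusted p of 0.0562, and the second-wave change of -1.56 one of 0.00155. The labels do not give the exons removed. Depth, estimated from the spacing of low values, ran from 6.1 to 12.7 M reads per library. The estimate is rough, since only 8.03% to 63.4% of the values under 8 in a library followed that spacing. The mitochondrial share of each library was 3.50% to 3.69% in WT acute, 4.80% and 5.27% in replicates 1 and 2 of KO acute, and 2.35% and 2.70% in its replicates 3 and 4. KO acute replicate 2 also stood apart from the other KO acute libraries on both acute principal components. It lay at 67.1 on the first (others 22.7 to 36.0) and at -56.9 on the second (others 16.8 to 41.8). WT survival replicates 1 and 2 stood apart from the other 8 survival libraries on the first principal component (78.6 and 67.2), and KO second-wave replicate 1 stood apart on the opposite side (-73.2); the other 7 lay between -18.8 and 4.16. Survival changes are given also without the WT pair for the 11 members in which both its libraries lay outside the range of the other 8.

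Levels per kilobase of exon spread over more than 2 orders of magnitude among the members. In WT acute spleens Scd2, the stearoyl-CoA desaturase that makes monounsaturated fatty acids, was highest at 646 ± 71.2 normalized counts per kb (SD, n = 4), followed by Elovl5, which elongates polyunsaturated fatty acids, at 589 ± 27.4. Their ranges overlapped, 568 to 726 against 570 to 628. Acsl4, which activates arachidonic acid, came next at 208 ± 27.3, and Fasn stood at 121. The other stearoyl-CoA desaturase of the set, Scd1, was 13.1 ± 3.95 per kb. The lowest were Me1 at 2.48, Acacb at 1.10 and Dgat2 at 0.927. In WT survival spleens the order began the same way, with Scd2 at 928 ± 27.3, Elovl5 at 849 ± 58.6 and Acsl4 at 304 ± 61.1. Adipocyte markers, of which 6 of the 10 listed were in the acute table, summed to 0.00155% to 0.00239% of the counts in WT acute and 0.00205% to 0.00320% in KO acute.

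**Figure D1:**
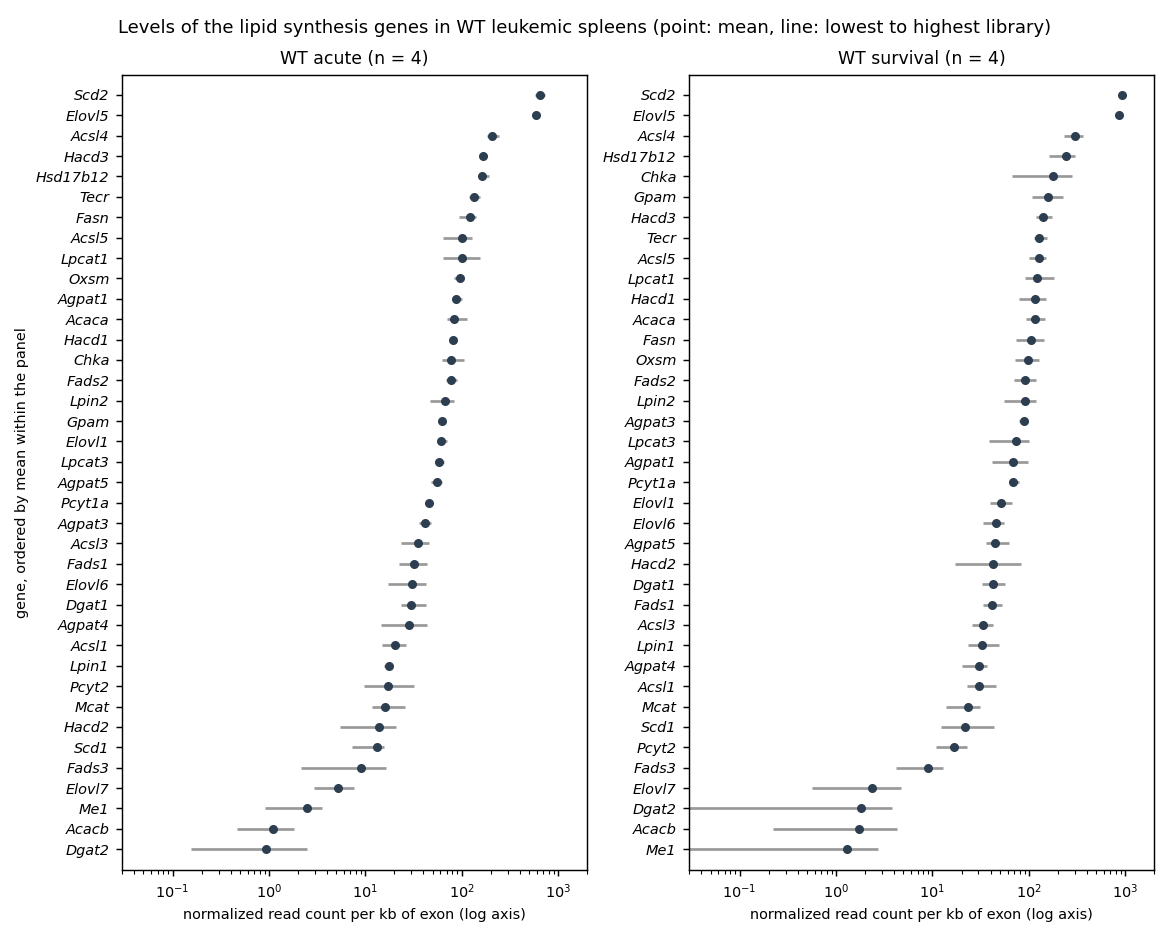
Normalized counts per kilobase of exon (log axis) of the 38 members in the 4 WT acute and 4 WT survival libraries; points are means, lines run from the lowest to the highest library, and a line that meets the axis edge has a library at 0. Scd2 and Elovl5 lie highest in both settings, and Me1, Acacb and Dgat2 are lowest in WT acute.

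In the acute setting, 48 h after treatment, 2 of the 36 tested members passed an adjusted p of 0.05: Acaca was higher in KO and Hsd17b12 was lower. That is 5.56% of the tested members, against 12.6% of all 14184 genes tested (4.58% higher and 8.07% lower; limma, Benjamini-Hochberg adjustment over all genes). Positive log2 changes were found for 14 members (38.9%, against 52.4% of all genes), and the median over the 36 was -0.05, against 0.03 over all genes. Fasn, the step after Acaca, differed by less than the spread between libraries. KO and WT did not overlap for 4 of the 36 members (11.1%, against 19.0% of all genes). Agpat3 was above WT in every KO library, as were 8.04% of all genes, and Hsd17b12, Acsl4 and Elovl5 were below it, as were 11.0%. The summed share of all normalized counts held by the 38 members was 0.220% to 0.232% in WT and 0.234% to 0.253% in KO. The totals under these shares differed too, 7.64 to 8.03 M normalized counts in WT and 7.07 to 7.26 M in KO. The higher share therefore does not show that the members rose, and 22 of the 36 tested had negative changes.

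**Figure D2:**
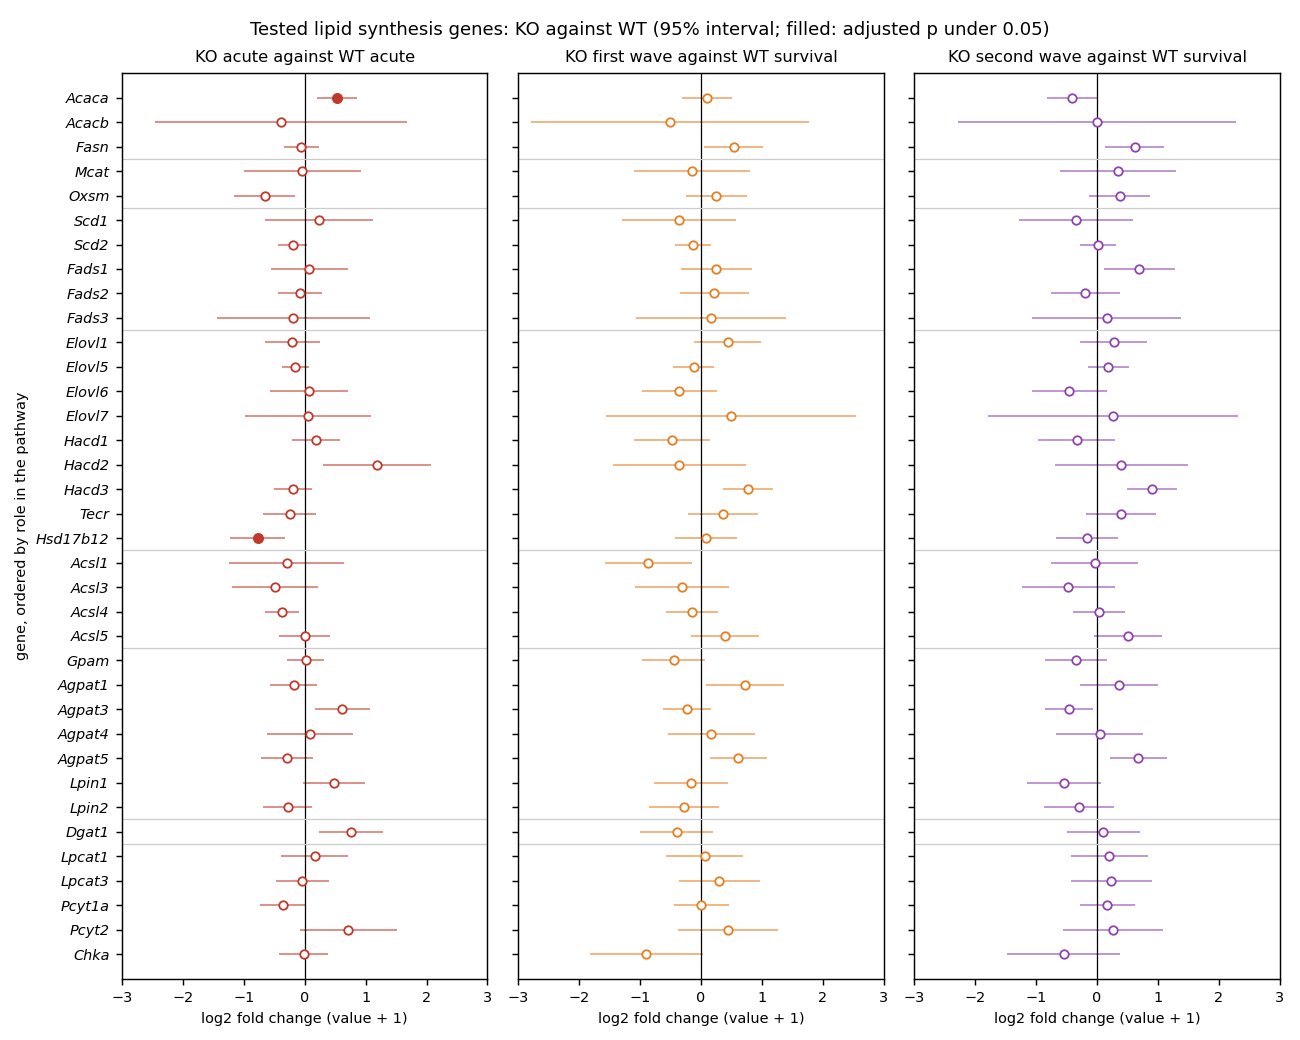
Log2 change of KO against WT, with 95% confidence intervals, for the 36 tested members in the acute setting and in the first and second survival waves; filled points passed an adjusted p of 0.05. Acaca and Hsd17b12 in the acute panel are the filled points, and both survival panels use the same 4 WT libraries.

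Among the cytosolic enzymes, Acaca (chr11:84129672-84401651, plus strand, GRCm38) read 1257, 1283, 1201 and 1927 in WT acute replicates 1 to 4 and 2311, 2120, 1888 and 1743 in KO. The KO libraries were higher on average, 2016 ± 251 against 1417 ± 342 (SD, n = 4 each), but WT replicate 4 lay above KO replicates 3 and 4. The log2 change was 0.53 (SE 0.15, limma adjusted p = 0.0387). The call was lost without any one of WT replicates 1, 2 and 3 (Acaca adjusted p = 0.0880, 0.101 and 0.108) or KO replicates 1, 2 and 3 (0.103, 0.0804 and 0.0554), and without KO replicates 1 and 2 together the change was 0.38 (0.235). Of the 31-base stretches of Acaca, 33.4% also occur in other genes, most of them in a processed pseudogene, Gm5182, which was not a row of the acute table. Fasn (chr11:120805846-120824547, minus strand) read 1527, 1021, 1433 and 1316 in WT and 1265, 1160, 1246 and 1386 in KO. Every Fasn value in KO lay within the WT range, and the change of -0.05 had a 95% confidence interval from -0.35 to 0.24 (limma adjusted p = 0.836). Acacb, the mitochondria-associated carboxylase, was low and uneven, 4.49 to 17.6 in WT and 1.10 to 46.4 in KO (log2 change -0.38, limma adjusted p = 0.834). The arithmetic means of Acacb went the other way, 10.6 in WT and 15.9 in KO, through KO replicate 4 at 46.4. Me1, the malic enzyme that yields NADPH, read 3.49 to 13.6 in WT and was between 0 and 11.2 in KO.

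The mitochondrial pathway makes the octanoate from which lipoic acid is built. Its ketoacyl synthase, Oxsm, read 421, 339, 411 and 397 in WT acute and 270, 147, 261 and 360 in KO. All but KO replicate 4 lay below the WT range, and the change of -0.66 (SE 0.23) had a limma adjusted p of 0.0809. It passed only without KO replicate 4, the KO library inside the WT range (Oxsm -0.84, limma adjusted p = 0.0307). With each acute library left out in turn, the Oxsm change ran from -0.84 to -0.41 and the adjusted p reached 0.164. Oxsm overlaps exons of Ngly1 on the opposite strand, and the sources used here do not give the strand setting of the counting. Mcat, the malonyl transferase of the pathway, was 39.7 ± 15.8 in WT and 41.1 ± 21.4 in KO (SD, n = 4 each).

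No desaturase passed the test. Scd2 (chr19:44293674-44306864, plus strand) read 3328, 3103, 3968 and 3727 in WT acute and 3438, 2913, 3068 and 2856 in KO, a change of -0.20 with a 95% confidence interval from -0.43 to 0.03. The ranges overlapped, since KO replicate 1 lay above WT replicates 1 and 2. Scd1 averaged 64.1 in WT and 83.5 in KO, with KO replicate 2 alone at 160. Of the 31-base stretches of Scd1 and Scd2, 8.14% and 6.81% also occur in other genes, among them each other and Scd3. Fads1 and Fads2, the delta-5 and delta-6 desaturases of polyunsaturated fatty acids, changed by 0.08 and -0.08, and Fads3, a related desaturase, by -0.18. The largest of these 5 changes in either direction, the 0.24 of Scd1, had a limma adjusted p of 0.746.

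Elongation adds carbons to an acyl-CoA in a cycle of 4 reactions: condensation (Elovl), reduction (Hsd17b12), dehydration (Hacd) and a second reduction (Tecr). Hsd17b12 (chr2:94032689-94157964, minus strand) read 350, 465, 352 and 377 in WT acute and 194, 163, 258 and 306 in KO. Every KO library lay below every WT library, and the lowest pair, KO replicates 1 and 2, were the libraries with the highest mitochondrial share. The change was -0.77 (SE 0.21, limma adjusted p = 0.0266). Without both of these libraries Hsd17b12 changed by -0.45 (adjusted p = 0.199), and the call was also lost without KO replicate 1 (0.0675), KO replicate 2 (0.0634), WT replicate 2 (0.0840) or WT replicate 4 (0.0669).

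None of the other 8 elongation members passed. Hacd2, a dehydratase, read 78.0, 62.2, 20.7 and 45.8 in WT and 133, 59.0, 147 and 112 in KO, so that 3 KO libraries were above all WT libraries and KO replicate 2 was among them. Its change of 1.18 (SE 0.41) was the highest of the 36 but had a limma adjusted p of 0.0763. The Hacd2 change was 1.46 (0.0402) without KO replicate 2. With each acute library left out in turn, it ran from 0.81 to 1.46 and the adjusted p reached 0.181. The dehydratases Hacd1 and Hacd3 changed by 0.18 and -0.20. Elovl5 read 2212, 2009, 2006 and 2071 in WT and 1661, 1859, 1963 and 1984 in KO, each KO value below each WT value by a small margin (log2 change -0.15, limma adjusted p = 0.356). Tecr changed by -0.25, Elovl1 by -0.21, Elovl6, which takes palmitate to stearate, by 0.07, and Elovl7 by 0.05. Shared sequence makes 4 of these counts less certain: 33.1% of the 31-base stretches of Hacd1, 10.2% of those of Tecr, 9.82% of those of Hacd2 and 6.41% of those of Elovl6 also occur in other genes.

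**Figure D3:**
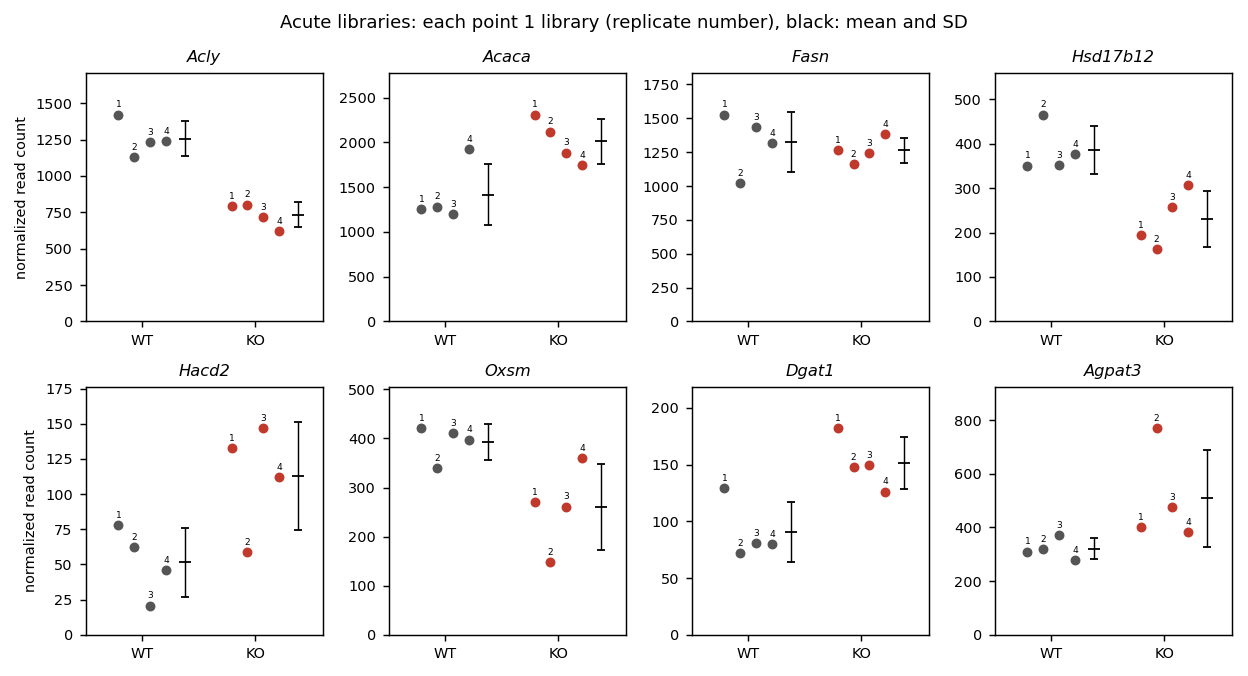
Normalized counts of Acly and 7 members in the 4 WT acute and 4 KO acute libraries; points are libraries and black marks are means with SD. Acly, Hsd17b12 and Agpat3 separate the groups, Acaca overlaps through WT replicate 4, and Fasn overlaps throughout.

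The 4 acyl-CoA synthetases, which attach CoA to free fatty acids, all had negative changes on the log2 scale and none passed. Acsl4 came closest: it read 992, 1021, 1312 and 1169 in WT and 777, 975, 841 and 869 in KO, with no overlap (log2 change -0.37, SE 0.13, limma adjusted p = 0.0799). Acsl3 read 183, 198, 101 and 133 in WT and 156, 54.5, 113 and 128 in KO, a change of -0.49 (adjusted p = 0.352) within overlapping groups. Acsl1 changed by -0.30 on the log2 scale although its KO mean of 215 was above the WT mean of 213, with KO values from 69.6 to 472, and Acsl5 averaged 492 in WT and 476 in KO.

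Of the 7 genes that act in making phosphatidic acid and diacylglycerol, none passed. Agpat3 (chr10:78269178-78352489, minus strand), an acyltransferase that makes phosphatidic acid, read 310, 320, 373 and 279 in WT and 401, 771, 477 and 383 in KO. All KO libraries were above all WT libraries, KO replicate 2 by the widest margin (log2 change 0.61, SE 0.21, limma adjusted p = 0.0723). It passed without KO replicate 4, the lowest KO library for Agpat3 (0.73, adjusted p = 0.0484). Gpam, the mitochondrial acyltransferase that opens the pathway, was 418 ± 26.5 in WT and 424 ± 39.9 in KO (SD, n = 4 each). Lpin1, a phosphatidate phosphatase, changed by 0.48 (adjusted p = 0.199) with KO replicate 2 at 389 and the others between 179 and 214, while Lpin2 changed by -0.28. Agpat1, Agpat4 and Agpat5 changed by -0.18, 0.08 and -0.29.

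Dgat1 (chr15:76502015-76511953, minus strand), which adds the last acyl chain to make triacylglycerol, read 129, 72.2, 80.8 and 79.9 in WT acute and 182, 148, 149 and 126 in KO. Only WT replicate 1 reached into the KO range. The change was 0.76 (SE 0.25, limma adjusted p = 0.0593), and 0.94 (0.0274) without that library. With each acute library left out in turn, the Dgat1 change ran from 0.67 to 0.94 and the adjusted p reached 0.143. Dgat2, the other enzyme of this step, was 0.479 to 7.69 in WT and 0.681 to 16.6 in KO and was not tested. Among the phospholipid genes, Pcyt2, which sets the pace of phosphatidylethanolamine synthesis, read 42.5, 44.1, 137 and 75.8 in WT and 135, 147, 91.6 and 79.7 in KO (log2 change 0.71, adjusted p = 0.229), with WT replicate 3 inside the KO range. Pcyt1a, its counterpart for phosphatidylcholine, changed by -0.36 (adjusted p = 0.200). Choline kinase Chka changed by -0.01, and the lysophosphatidylcholine acyltransferases Lpcat1 and Lpcat3 by 0.16 and -0.04.

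Other genes of lipid metabolism were read from a wider list of 84, of which 69 were tested in the acute table. Of these, 3 were higher and 4 lower in KO (10.1%, against the same 12.6% of all genes). Srebf1, which encodes SREBP-1, rose from 275 ± 111 to 532 ± 60.2 (SD, n = 4 each; log2 change 1.03, SE 0.25, limma adjusted p = 0.0160), with no overlap. Its call was lost without WT acute replicate 2 (Srebf1 adjusted p = 0.0517) and without KO replicates 1 and 2 together (0.0955). Mlxip, a glucose-responsive transcription factor, rose by 0.74 (adjusted p = 0.0169), and Pgs1, of cardiolipin synthesis, by 0.78 (0.0263). Among the genes that fell, the fatty acid carrier Fabp5 went from 1254 ± 25.5 to 458 ± 155 (log2 change -1.52, SE 0.20, adjusted p = 0.000969), the acyltransferase Lpgat1 changed by -0.61 (0.00504) and Cyb5a, the cytochrome b5 that passes electrons to desaturases, by -0.69 (0.0123). Pgs1 lost its call without any one of WT acute replicates 2, 3 and 4 or KO acute replicates 2 and 3 (changes of 0.58 to 0.83). Cyb5a lost its call without WT acute replicate 4 (-0.61). Without KO acute replicates 1 and 2 together, Cyb5a (-0.51, limma adjusted p = 0.0873) and Pgs1 (0.77, 0.116) both lost their calls. In a fit without an eBayes trend, Srebf1 (0.0791), Mlxip (0.0797), Pgs1 (0.0811) and Cyb5a (0.0587) did not pass. Of the 31-base stretches of Fabp5, 9.21% also occur in other genes. Crls1, cardiolipin synthase, fell from 150 ± 33.2 to 72.1 ± 18.0 (SD, n = 4 each; -1.05, adjusted p = 0.0216); it lies outside the naming rule and was added after its value was seen. All 6 tested genes of citrate and NADPH supply had negative changes (median -0.37) and none passed. Of 13 regulators, 9 had positive changes (69.2%, against 52.4% of all genes), in a range from -1.23 to 1.55 (median 0.37). Of the 13, 2 passed (15.4%, against 12.6% of all genes). Of 10 tested genes of lipid uptake and storage, 7 had negative changes (median -0.38) and 1 passed. Medians of the other roles ran from -0.02 to 0.16.

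**Figure D4:**
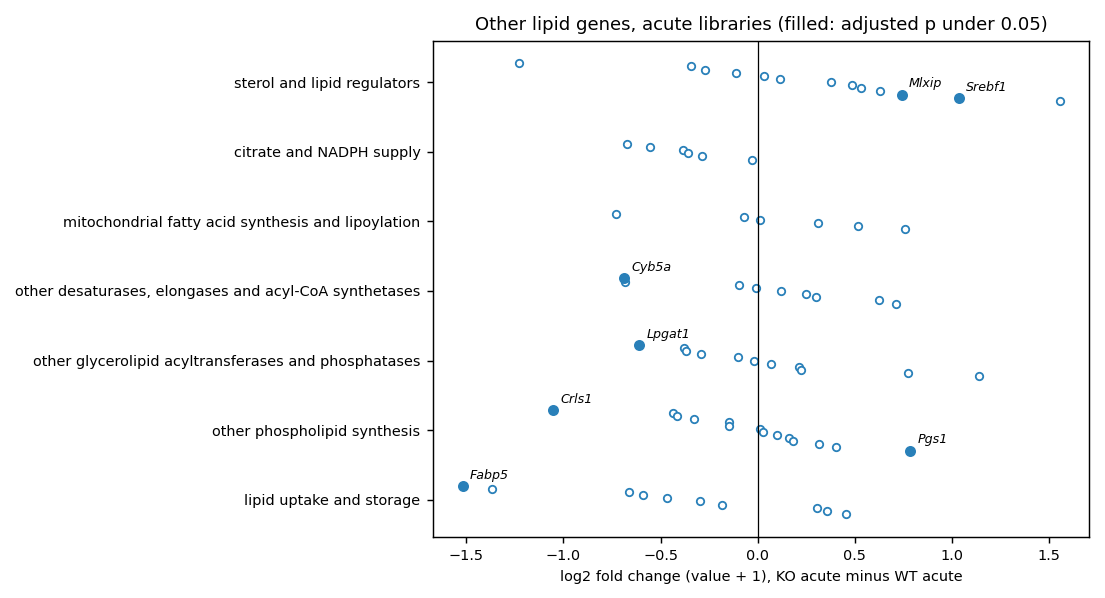
Log2 change of KO acute against WT acute, for the 69 tested genes of the wider lipid list by role; filled points passed an adjusted p of 0.05. The 3 genes that rose are Srebf1, Mlxip and Pgs1, and the 4 that fell are Fabp5, Lpgat1, Cyb5a and Crls1.

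Cell type markers also moved in the acute setting. The 19 T-ALL blast markers, all measured, summed to 1.30% to 1.50% of the counts in WT and 0.959% to 1.35% in KO, and 5 of them fell while 1 rose, against 8.07% and 4.58% of all genes. Neutrophil markers, all 16 of which were measured, summed to 0.0120% to 0.0242% in WT and 0.0233% to 0.0716% in KO. The 15 tested all had positive changes (median 0.79), and 2 passed (13.3%, against 4.58% of all genes higher). The 12 B cell markers summed to 0.00611% to 0.0132% in WT and 0.00850% to 0.0235% in KO, and all 11 tested had positive changes (median 0.71, none past the test). The 12 erythroid markers summed to 0.140% to 0.234% in WT and 0.0801% to 0.222% in KO. All 12 had negative changes (median -0.90), and 2 passed (16.7%, against 8.07% of all genes lower). The 7 measured of 10 stromal and endothelial markers summed to 0.0130% to 0.0155% in WT and 0.0198% to 0.0217% in KO, with no overlap. None of these lists had a marker at 0 in every library of a group. Their part in the changes of Acaca, Hsd17b12 and the wider genes was not tested.

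At endpoint no member passed in either wave. In the first wave, 0 of the 36 tested members and 0% of all 14286 genes passed an adjusted p of 0.05 with limma, while 5 members and 8.02% of all genes had an unadjusted p under 0.05. In the second wave it was 0 members, against 0.224% of all genes, with 6 members and 13.0% of all genes under an unadjusted 0.05. Positive changes were found for 19 members in the first wave and 22 in the second, against 50.6% and 49.1% of all genes, and the medians were 0.03 and 0.13 against 0.01 and -0.01. In the first wave 3 members lay wholly above WT, against 4.40% of all genes, and 1 wholly below, against 3.60%. In the second wave the groups did not overlap for 3 members (8.33%, against 9.66% of all genes). No member passed in the second wave without its replicate 1 either: Hacd3 then changed by 0.86 (adjusted p = 0.224), Fads1 by 0.55 and Acaca by -0.26. That library had the highest summed erythroid (0.479%) and macrophage (0.0402%) markers of the 10, and the part of these in second-wave values was not tested. The waves share their 4 WT libraries, so they are not separate tests of any gene.

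Hacd3 (chr9:64986983-65021693, minus strand), a dehydratase of the elongation cycle, was above every WT library in all 6 KO libraries. It read 318, 338, 473 and 386 in WT survival, 670, 591 and 660 in the first wave and 733, 709 and 651 in the second. The changes were 0.77 (SE 0.19, limma adjusted p = 0.617) and 0.89 (SE 0.19, 0.0880), and 0.83 (SE 0.16, 0.218) for the mean of both waves. Without WT survival replicates 1 and 2 the Hacd3 changes were 0.58 and 0.70. Without WT survival replicate 3, the highest WT library, Hacd3 passed in the second wave (1.01, adjusted p = 0.0312) and over both waves (0.94, 0.0398); leaving out that library also raised the calls over all genes from 32 to 140 in the second wave and from 3 to 172 over both. In the contrast of both waves, 0 members passed, against 0.0210% of all genes, and 4 had an unadjusted p under 0.05, against 12.9% of all genes. Hacd3 was the only member with no overlap across all 6 KO libraries, as were 2.12% of all genes.

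Other elongation genes changed less. Elovl5 read 3207, 3097, 2921 and 2736 in WT survival, 3075, 2374 and 2839 in the first wave and 4048, 3226 and 3001 in the second, and its ranges overlapped throughout. Hsd17b12, which fell in the acute setting, averaged 606 ± 114 in the first wave and 507 ± 70.5 in the second (SD, n = 3 each), against a WT mean of 583 ± 159 (SD, n = 4), with changes of 0.09 and -0.16 (limma adjusted p = 0.931 and 0.800). Tecr changed by 0.36 and 0.39, and Elovl1 by 0.44 and 0.27; without WT replicates 1 and 2 the Elovl1 changes were 0.19 and 0.03. Elovl6 read 352, 357, 212 and 247 in WT, 251, 243 and 182 in the first wave and 194, 152 and 301 in the second. WT replicates 1 and 2 were the highest of the 10, and the Elovl6 changes of -0.35 and -0.46 became -0.04 and -0.15 without them.

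Fasn read 991, 802, 1557 and 1281 in WT survival, 1925, 1476 and 1515 in the first wave and 1617, 1498 and 2094 in the second. WT replicate 3 lay within the KO range and the other 3 WT libraries below it. Changes were 0.54 (SE 0.22, limma adjusted p = 0.617) and 0.61 (SE 0.22, 0.265). Without WT replicates 1 and 2, both below all other survival libraries, the Fasn changes were 0.20 and 0.28. Acaca read 2523, 1729, 1585 and 1998 in WT, 1946, 2359 and 1940 in the first wave and 1173, 1482 and 1739 in the second, with changes of 0.10 and -0.41 (adjusted p = 0.888 and 0.383). Acacb stayed low, between 1.91 and 40.9 over the 10 libraries, and Me1 was at 0 in 3 of them.

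The desaturase Fads1 read 251, 164, 162 and 223 in WT survival, 256, 192 and 262 in the first wave and 391, 368 and 223 in the second. Second-wave replicates 1 and 2 were above all other libraries, and the change was 0.70 (SE 0.27, limma adjusted p = 0.303). Scd2 read 5128, 5252, 4999 and 4911 in WT, 5179, 4374 and 4352 in the first wave and 5314, 5666 and 4462 in the second, with changes of -0.13 and 0.01. For the second wave its 95% confidence interval ran from -0.28 to 0.31. Scd1 was 210 in WT replicate 1 and 59.5 to 82.5 in the other 3, against 45.7 to 103 over the 6 KO libraries. In the mitochondrial pathway, Oxsm changed by 0.26 and 0.37 and Mcat by -0.15 and 0.35. Without WT replicates 1 and 2 the Oxsm changes were -0.11 and 0.00066.

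No gene of phosphatidic acid synthesis passed in either wave. Agpat5, an acyltransferase of mitochondria and the endoplasmic reticulum, read 383, 420, 675 and 427 in WT, 750, 599 and 804 in the first wave and 809, 704 and 714 in the second. All KO libraries but first-wave replicate 2 were above all WT libraries, and the changes were 0.62 and 0.67 (limma adjusted p = 0.617 and 0.230). Without WT replicates 1 and 2 the Agpat5 changes were 0.41 and 0.46. Without WT replicate 3, the library highest for Agpat5 among WT, Agpat5 passed over both waves (0.83, adjusted p = 0.0441), in the fit that called 172 genes in place of 3. Agpat1 read 145, 124, 293 and 269 in WT, 310, 358 and 297 in the first wave and 255, 220 and 274 in the second. Its changes were 0.72 (adjusted p = 0.617) and 0.36 (0.634), and 0.19 and -0.17 without WT replicates 1 and 2. Agpat1 overlaps exons of Egfl8 on the opposite strand, and Agpat5 overlaps exons of Gm35934. Of the 31-base stretches of Agpat5, 0.186% occur in other genes on the same strand and 18.9% on either strand. The either-strand share was 2.49% for Agpat1, 9.91% for Acsl1, 9.10% for Lpcat3, 9.01% for Pcyt1a and 7.31% for Acsl5.

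Agpat3 read 638, 761, 771 and 614 in WT, 697, 521 and 575 in the first wave and 467, 531 and 508 in the second, where every KO library lay below every WT library (-0.47, SE 0.18, limma adjusted p = 0.307). In the acute setting Agpat3 had been above WT in every KO library. The tables were normalized separately and this difference was not tested. Gpam read 1486, 1243, 776 and 724 in WT, 794, 760 and 672 in the first wave and 882, 692 and 819 in the second; its changes of -0.45 and -0.35 became -0.02 and 0.08 without WT replicates 1 and 2. Lpin1 read 313, 473, 256 and 228 in WT, 303, 286 and 235 in the first wave and 261, 154 and 227 in the second, with overlap in both waves. Its changes were -0.16 and -0.55 (adjusted p = 0.883 and 0.434), and 0.17 and -0.21 without WT replicates 1 and 2. Lpin2 changed by -0.28 and -0.30, and by 0.17 and 0.15 without that pair.

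Acsl1, an acyl-CoA synthetase, read 475, 239, 307 and 241 in WT, 103, 195 and 224 in the first wave and 407, 217 and 288 in the second. The first wave lay wholly below WT (log2 change -0.87, SE 0.33, limma adjusted p = 0.617) and the second overlapped it (-0.04, 0.972). Acsl5 read 492, 561, 739 and 669 in WT and 753, 763 and 890 in the first wave, all above WT (0.40, adjusted p = 0.675). In the second wave it read 518, 1243 and 995 (0.50, 0.436). Without WT replicates 1 and 2 the Acsl5 changes were 0.18 and 0.29. Acsl3 read 183, 111, 138 and 144 in WT, 149, 72.3 and 139 in the first wave and 63.8, 115 and 145 in the second, with changes of -0.31 and -0.47 (adjusted p = 0.808 and 0.599). Its low values came from 1 library in each wave. Acsl4 changed by -0.15 and 0.04.

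Chka, the first enzyme of phosphatidylcholine synthesis from choline, split the WT libraries. It read 3394 and 3251 in WT survival replicates 1 and 2, 810 and 1073 in replicates 3 and 4, 772, 1062 and 1028 in the first wave and 1207, 1708 and 846 in the second. The changes of -0.90 and -0.55 (limma adjusted p = 0.623 and 0.612) were the lowest of any tested member in each wave. Without WT replicates 1 and 2 they were 0.02 and 0.37 for Chka. Dgat1 changed by -0.40 and 0.10, Pcyt1a by 0.01 and 0.16, Pcyt2 by 0.44 and 0.26, Lpcat1 by 0.06 and 0.20, and Lpcat3 by 0.30 and 0.23.

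**Figure D5:**
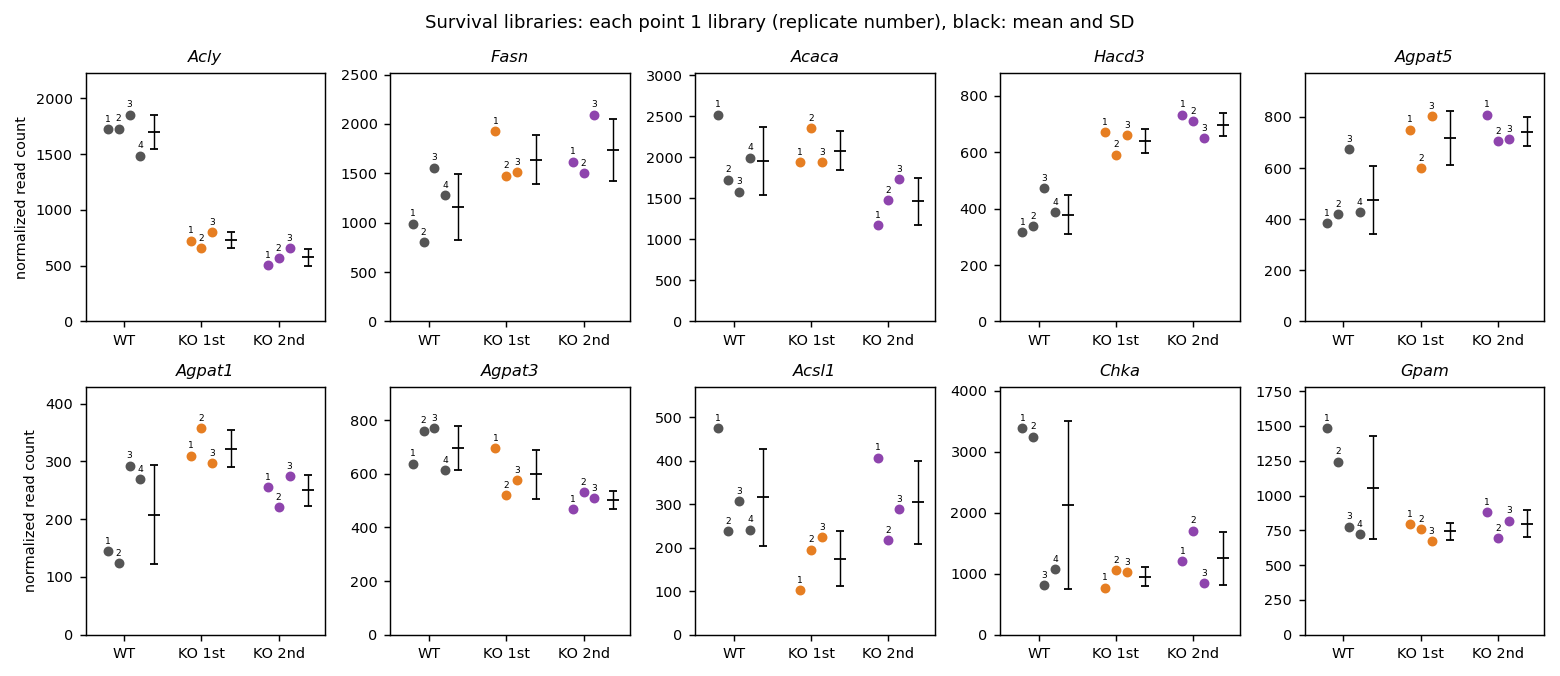
Normalized counts of Acly and 9 members in the 4 WT survival, 3 KO first wave and 3 KO second wave libraries; points are libraries and black marks are means with SD. Hacd3 is above WT in all 6 KO libraries, and WT replicates 1 and 2 stand apart for Chka and Gpam.

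WT survival replicates 1 and 2 both lay outside the range of the other 8 survival libraries for 11 of the 36 tested members (30.6%), against 24.4% of all tested genes. They were above it for Elovl6, Gpam, Lpin1, Lpin2 and Chka, and below it for Fasn, Oxsm, Elovl1, Hacd3, Agpat1 and Agpat5. Without the pair the log2 change turned sign for 12 of the 36 members in the first wave and 12 in the second, none of which passed with or without it. Besides members of that group of 11, these were Scd1, Fads3, Agpat4, Lpcat1 and Lpcat3 in both waves, Hacd2, Acsl4 and Pcyt1a in the first, and Acsl1, Dgat1 and Pcyt2 in the second. Hacd2 moved furthest among them, from -0.36 to 0.53 in the first wave. Others began near 0, such as Pcyt1a at 0.01 in the first wave and Acsl1 at -0.04 in the second. The share of all genes that turned sign without the WT pair was not counted, so these counts do not set the members apart. The T-ALL blast markers of this pair summed to 0.828% and 0.927% of the counts, below the 1.36% and 1.38% of the other WT libraries, the first wave (1.32% to 1.61%) and the second (1.10% to 1.22%). Neutrophil markers, 15 of 16 measured, summed to 0.0181% and 0.0111% in the pair and to 0.00302% to 0.00489% in the other 8. Macrophage markers summed to 0.00963% and 0.0103% in the pair, the lowest of the 10. B cell markers did not overlap between the second wave (0.00312% to 0.00450%) and WT survival (0.00591% to 0.00920%). Their part in these values was not tested. None of the 68 tested genes of the wider lipid list passed in either wave with limma, against 0% and 0.224% of all genes. In the first wave 4 had an unadjusted p under 0.05 (5.88%, against 8.02% of all genes). In the second wave it was 7 (10.3%, against 13.0% of all genes). Srebf1, which rose in the acute setting, was 597 ± 147 in WT survival (SD, n = 4), 455 ± 55.8 in the first wave and 432 ± 120 in the second (SD, n = 3 each), with changes of -0.36 and -0.46 (limma adjusted p = 0.682 and 0.447).

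Set against each other directly, no member passed between the waves: 0 of 36 passed with limma, against 0.119% of all genes, and 2 had an unadjusted p under 0.05, against 6.34% of all genes. Those were Acsl1, higher in the second wave by 0.83 (SE 0.36, adjusted p = 0.750), and Acaca, lower by a change of -0.52 (SE 0.21, 0.680) with no overlap. Dgat1 was higher in every second-wave library (126, 145 and 134) than in every first-wave library (105, 85.3 and 94.8), a change of 0.50 (adjusted p = 0.885), and Agpat1 was lower in every one (-0.36, adjusted p = 0.956). Non-overlap was thus found for 3 of the 36 members, and for 13.6% of all genes. Hacd2 read 159, 77.0 and 85.3 in the first wave and 222, 225 and 102 in the second, a change of 0.76 (adjusted p = 0.921). Acacb changed by 0.51, Fads2 by -0.41 and Lpin1 by -0.39, with overlapping ranges. Acly itself changed by -0.34 (adjusted p = 0.860).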

How the data were processed

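RNA-seq of 18 leukemic spleen libraries was analysed. The authors deposited 1 table per setting of a normalized signal: per the submitters' processing notes, gene counts estimated with kallisto 0.44.0 (GRCm38) and divided by DESeq size factors. The sources used here do not give the versions of DESeq and of the annotation, or any gene filter. Whole reads could not be recovered: 8.03% to 63.4% of values under 8 were whole multiples of 1 read (tolerance 0.02). Each table was tested on its own, on log2(value + 1), for genes with a mean of at least 10, with limma 3.58.1 (R 4.3.3, trended eBayes, all groups of a table in 1 fit) and Benjamini-Hochberg adjustment over all genes tested. A log2 change on this scale understates changes of low genes. Named were Acly, members past 0.05, the 3 highest and 3 lowest changes of each contrast, and at most 3 wider genes a direction; other members are given by step. Members and lists were chosen with earlier results of these data known. Gene positions and lengths come from GENCODE M21. Equal replicate numbers were not stated to mark paired samples, so the main fit used no replicate block. Alternatives covered the pseudocount, filter, normalization, eBayes settings, replicate block and left-out libraries.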

Additional observations from a re-analysis of the deposited data

Results flagged for a closer look

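In 9 of 117 groups of 4 libraries checked, 1 library stood far from the other 3; chance gives about 1 in 20. In WT acute these were replicate 4 for Acaca (1927), replicate 2 for Elovl1 (193) and Dgat2 (7.69), and replicate 1 for Agpat1 (301) and Dgat1 (129). In KO acute they were replicate 3 for Agpat4 (90.1) and replicate 2 for Lpin1 (389). In WT survival they were replicate 1 for Scd1 (210) and replicate 3 for Agpat5 (675). Agpat3 had opposite signs in 2 settings and passed the test in neither: all 4 KO acute libraries were above WT (log2 change 0.61) and all 3 second-wave libraries were below it (-0.47). That difference was not tested, since the tables were normalized separately.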

How the results depend on the processing

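Over 42 results for single genes, 785 of 831 values under other settings kept their direction and side of the threshold. Most of the 42 had not passed in the main fit, so staying on their side says little about the calls. Leaving out each of the 8 acute libraries in turn, Acaca lost its call in 6 fits and Hsd17b12 in 4. In the acute setting, 2 members passed; without an eBayes trend 0 did, with a replicate block 1, without KO replicates 1 and 2 together 0, and 0 to 4 when each library was left out in turn. Calls over all genes moved as well, from 1794 to 693 without a trend, 1391 with the block, 862 without both KO libraries and 985 to 1634 leaving out each library. Of the wider list 7 passed; without a trend 2 did, without both KO libraries 4, and 4 to 8 leaving out each library. Leaving out each library gave 0 to 1 members in the second wave and 0 to 2 over both waves; calls over all genes then ran from 15 to 140 (32 with all libraries) and from 2 to 172 (3), and the members gained came from the fits without WT survival replicate 3, with 140 and 172 calls. The first-wave change of Acly (-1.22, adjusted p = 0.0562) passed with a pseudocount of 8 (-1.21, 0.0458), without a filter (-1.22, 0.0440), with a minimum mean of 50 (-1.22, 0.0424), with quantile normalization (-1.22, 0.0459) and with robust eBayes (-1.22, 0.0398), and ran from -1.29 to -1.15 leaving out each library, passing without second-wave replicate 3 (0.0251); its adjusted p was 0.697 without a trend, 0.191 with the block, 0.187 without WT survival replicates 1 and 2, and up to 0.595 leaving out each library. Without WT survival replicates 1 and 2, Chka turned to 0.019, 0.37 and 0.19 in the first wave, the second and both; leaving out each library, Acacb ran from -1.09 to 0.15 in the first wave (0.15 without WT survival replicate 3) and from -0.012 to 1.43 between waves (-0.012 without second-wave replicate 1). The cause of these shifts was not tested. Quantile normalization split the acute calls into 746 higher and 832 lower, against 650 and 1144. Whether equal replicate numbers mark pairs is not stated. Same-number correlations ran from -0.029 to 0.0065 in the acute table and from -0.029 to 0.095 in the survival table. They lay within the different-number ranges, -0.048 to 0.046 and -0.10 to 0.11. With so few libraries a group, such values cannot exclude pairing. Depth was only estimated, so no counting interval was given for low genes such as Me1 and Dgat2.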
